A study of Mus musculus with 36 samples.

Results

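The change in gene expression of Ikaros cells between 12 h and 18 h of induction was measured by RNA-seq in 3 libraries at each time. These were the libraries labelled Ikaros at 12 h and at 18 h, from culture batches 1, 3 and 4 at both times, and they made up 6 of the 36 libraries of the series. The cells were B3 cells, a mouse pre-B cell line, transduced with a retrovirus encoding Ikaros fused to the ERt2 domain of the oestrogen receptor together with GFP, and sorted on GFP. Control cells were B3 cells carrying the empty vector with ERt2 and GFP, sampled at the same times from the same batches (6 libraries). Both lines received 0.5 uM 4-hydroxytamoxifen, which moves the fusion protein into the nucleus, so the drug was shared by all groups compared here. The model is thus 1 cell line, sorted as a population, in which a retroviral vector raises Ikaros above its own level. Values were the deposited normalised log2 expression of 12762 genes, and a difference of 1 on this scale is a doubling. The files gave no read counts, so the depth behind each value is unknown.

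Ikaros, encoded by Ikzf1, is a zinc finger protein of lymphoid cells. In large cycling pre-B cells, signals from the pre-B receptor and the IL-7 receptor drive division and a high rate of glycolysis and biosynthesis. When these signals end the cells leave the cycle, Foxo1 becomes active, the recombinase genes Rag1 and Rag2 are transcribed, and the immunoglobulin light chain genes are rearranged. Ikaros is known to promote this transition from large to small pre-B cells.

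All 12 genes of a pre-B identity list were measured, and between 12 h and 18 h 7 of them rose (beside 14.7% of all genes) and none fell; 5 of the rises kept their call in each fit that left out 1 batch. Of markers of other cells, 3 of 9 T cell genes, 3 of 10 myeloid genes, 3 of 8 erythroid genes and none of 7 fibroblast genes were in the table. The defining T cell genes Cd3e, Cd3d, Cd3g, Cd4 and Cd8a were not in it. The mean level of the measured T cell genes was 10.96 to 11.07 at 12 h and 10.41 to 10.69 at 18 h in Ikaros cells, and that of the myeloid genes was 7.93 and 8.18 on average; their part in any result was not tested. Transcripts of the Ikzf1 gene, which the retroviral RNA also carries, stood at 20.76, 20.79 and 20.52 at 12 h in batches 1, 3 and 4 and at 20.66, 20.65 and 20.66 at 18 h. The times overlapped and the change of -0.03 was not called (adjusted p = 0.892), while control cells had 14.85, 14.61 and 14.26 at 12 h. Ikzf1 thus did not differ beyond its spread between the times, and every Ikaros library was far above every control library. In these bulk libraries a change in the share of cells of one kind and a change in RNA per cell cannot be told apart. The study's records place the 12 h and 18 h Ikaros libraries of each batch in different library preparations, a factor the authors adjusted for, and its part in the differences was not tested.

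Between 12 h and 18 h the Ikaros cells changed widely while few genes passed the test in control cells. In Ikaros cells 3939 of 12762 genes were called at an adjusted p under 0.05 (30.9%), of which 1877 rose (14.7% of all genes) and 2062 fell (16.2%). The median absolute change of the called genes was 0.594, and 792 of them changed by at least 1 (437 higher and 355 lower). The change had 1 sign in all 3 batches for 3878 of the called genes (98.5%), and in 3680 (93.4%) the 3 libraries of one time lay wholly beyond those of the other. The calls were made on these same libraries, so both counts describe the called genes and are no separate support for them. Over all genes the 2 times did not overlap for 43.3% in Ikaros cells and for 8.10% in control cells. In control cells 1 gene was called (0.00784%), Ell3, which encodes an elongation factor, and 785 passed an unadjusted p of 0.05, against 5324 in Ikaros cells. Ell3 rose there by 1.56 from a low mean level of 3.89, and limma called no gene in control cells when any 1 of the batches was left out (512, 468 and 928 genes at an unadjusted p under 0.05 without batch 1, 3 and 4). The test of the difference between the 2 lines called 2125 genes (16.7%), and 1999 of these were also called in Ikaros cells alone. That 2125 became 559 without batch 1, 363 without batch 3 and 1370 without batch 4. Calls depended on the batches: 2452 genes were called without batch 1, 1676 without batch 3 and 2873 without batch 4, and 1298 of the 3939 (33.0%) kept their call in each of these 3 fits (578 higher and 720 lower).

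**Figure D1:**
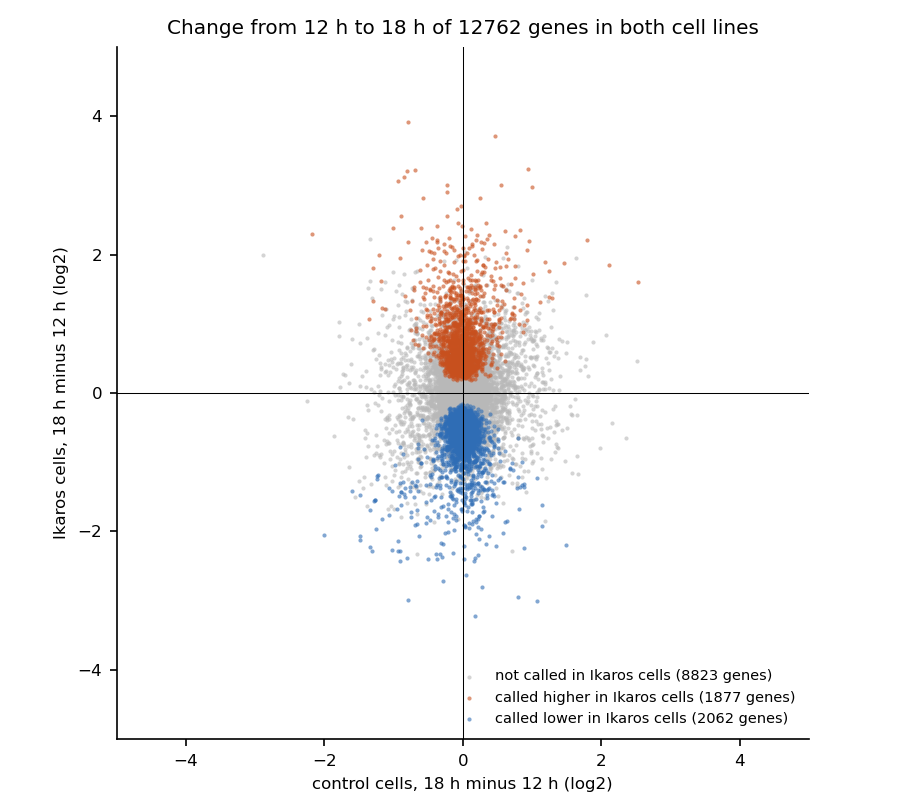
Change from 12 h to 18 h of each of 12762 genes in control cells (x axis) and in Ikaros cells (y axis), both on the log2 scale, with 1 point per gene. The 1877 genes called higher and the 2062 called lower in Ikaros cells spread mainly along the y axis.

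The interval was also set against its neighbours in the same cells. In Ikaros cells 3205 genes were called between 6 h and 12 h (13.0% of all genes higher and 12.1% lower) and 1061 between 18 h and 24 h (2.66% higher and 5.65% lower), each step lasting 6 h. The 12 h to 18 h change differed from the 6 h to 12 h change for 1412 genes (11.1%) and from the 18 h to 24 h change for 321 genes (2.52%); these comparisons share libraries at 12 h and 18 h. Of the genes that rose, 465 had also risen in the step before and 167 had fallen in it, while for 1140 neither neighbouring step was called. Of those that fell, 481 had already fallen, 188 had risen, and for 1158 neither neighbouring step was called. Changes larger than both neighbours were called for 74 rising and 67 falling genes. Without batch 3 the 1412 became 47 and the 321 became 1, so these counts in particular rest on that batch; without batch 1 they were 859 and 10, and without batch 4 they were 234 and 51.

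Among genes of at least median level (here and below the mean over all 36 libraries of both lines), the largest fall was that of Slc16a3 (chr11:120948480-120960868 of GRCm38), which encodes the lactate exporter MCT4. It stood at 13.02, 13.36 and 12.97 at 12 h in batches 1, 3 and 4 and at 10.53, 10.15 and 9.0 at 18 h, and fell by 3.22 (SE 0.36, adjusted p = 1.63e-06). All 18 h libraries were well below those at 12 h, and in control cells the change was 0.18. Of 21 genes of glycolysis and lactate export, 17 fell (81.0%, beside 16.2% over all genes), 1 rose and 3 were not called, with a median change of -0.93 in Ikaros cells and -0.01 in control cells. The medians within batches 1, 3 and 4 were -0.79, -0.99 and -1.03, beside a median over all genes of -0.00075, and 15 of the 17 falls kept their call without each batch in turn.

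The falls ran along the pathway from uptake to lactate. The glucose transporter gene Slc2a1 fell by 1.71 (SE 0.17, adjusted p = 2.90e-07), and hexokinase Hk2, the first enzyme, fell by 1.10 (SE 0.13, adjusted p = 4.41e-06). Pfkp (chr13:6579768-6648777) encodes a phosphofructokinase, the committed step. Its values were 14.10, 14.27 and 13.94 at 12 h and 12.31, 12.34 and 11.73 at 18 h, against 14.14, 14.45 and 13.91 and 14.00, 14.23 and 13.88 in control cells. The Ikaros values were lower at 18 h in every batch, below both times of the control, and the gene fell by 1.98 (SE 0.13, adjusted p = 8.51e-09). Tpi1, the triose phosphate isomerase, fell by 1.36 (SE 0.16, adjusted p = 2.15e-06). Ldha, which makes lactate from pyruvate, went from 17.50, 17.43 and 17.36 to 16.17, 16.09 and 15.95, a tight set at each time, and fell by 1.36 (SE 0.12, adjusted p = 1.88e-07). Of these, the 12 h to 18 h falls of Slc16a3, Pfkp, Slc2a1 and Tpi1 were larger than those of the 6 h before, when the list median had been -0.35; in the step after, it was -0.94.

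One lactate transporter went the other way. Slc16a1, encoding MCT1, had 15.63, 15.29 and 15.74 at 12 h and 16.91, 16.57 and 16.95 at 18 h, and rose by 1.26 (SE 0.16, adjusted p = 6.20e-06). It thus rose in the interval in which Slc16a3 fell, and its difference from the control change was 1.50 (adjusted p = 1.35e-04). Both Slc16a1 and Ldha carry the letters CACGTG, the E-box read by Myc and related factors, upstream of a RefSeq start, and are shown because they share it while moving in opposite directions. The sequences are from RefSeq on GRCm38.p6, 5′ to 3′ along the gene's strand, with the E-box in capitals.
Ldha, at chr7:46845745-46845773 (plus strand): ggcccagcctaCACGTGggttcccgcacg
Slc16a1, at chr3:104638453-104638481 (plus strand): cggcgccgggtCACGTGgcgggaaggggg
Windows of 300 bases, 250 before and 50 after a start, were found for 8586 genes (68.8% of the symbols; 10928 windows), and CACGTG, which reads the same on both strands, was in 10.0% of them. It was in 11% of windows of genes that rose and in 12.6% of those that fell. The letters TGGGAA, the core bound by Ikaros, searched on both strands, were in 22.5% of all windows. Their share was 21.4% for genes that rose and 23.65% for those that fell. In the same order the E2F letters TTCCCGCC were in 4.0%, 3.4% and 4.8%, and the forkhead letters TGTTTAC in 2.4%, 2.7% and 2.3%.

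Genes that bring in or make amino acids, or that load them onto tRNA, fell in large part as well. Of 8 genes of serine and one-carbon metabolism 7 fell, all 7 also without each batch, with a median of -0.85; they included Shmt2, which transfers a carbon unit from serine, at -1.06 and Phgdh, the entry enzyme of serine synthesis, at -1.04. Of 10 amino acid transporters 7 fell and 1 rose (median -0.62), and 6 of the falls kept their call without each batch. Of 20 aminoacyl tRNA synthetases 16 fell and 1 rose (median -0.47), and 8 of the falls kept it. The falls made up 87.5%, 70% and 80% of these lists, beside 16.2% of all genes. Control medians were -0.03, -0.04 and 0.05.

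Asns (chr6:7675169-7693254) encodes asparagine synthetase. It stood at 14.94, 15.30 and 14.96 at 12 h and 13.34, 13.45 and 13.29 at 18 h, against 15.41, 15.46 and 15.70 and 15.40, 15.63 and 15.70 in control cells. It fell by 1.71 (SE 0.10, adjusted p = 1.61e-09), more than in the step before (-0.57) and in the step after (-0.55). The fall was thus steepest in these 6 h, and with all 3 batches the difference from each neighbour was called. Over all genes, the test against the step after called 1 gene without batch 3, so calls of this kind rest on that batch. Slc7a5, the transporting subunit of the leucine transporter LAT1, had 14.34, 14.85 and 14.70 and then 12.99, 13.23 and 12.86, and fell by 1.60 (SE 0.15, adjusted p = 2.90e-07). Its partner Slc3a2 fell by 0.78, the cystine transporter Slc7a11 by 1.55, and the serine and alanine transporter Slc1a4 by 1.32. The single riser was Slc38a2, a glutamine carrier, at 0.47 (adjusted p = 0.0118), and its call was lost without batch 1 (0.0721) and without batch 3 (0.16).

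These genes overlap with targets of Atf4, the factor that the integrated stress response brings up when amino acids are short. Of 12 measured genes of that response 6 fell (50%, beside 16.2% of all genes), 1 rose and 5 were not called. The median was -0.57, and 3 of the falls kept their call without each batch. Besides Asns, Trib3, a pseudokinase that feeds back on Atf4, fell by 1.47 (adjusted p = 6.79e-05), and Atf3, a related factor, went from 8.38, 7.17 and 8.33 to 6.61, 6.40 and 5.34. Atf3 fell by 1.85 (SE 0.57, adjusted p = 0.0184), but the call was lost without batch 1, 3 or 4 (adjusted p = 0.0579, 0.0767 and 0.113), and so was that of Nupr1 at -1.36 (adjusted p = 0.194, 0.0583 and 0.226). The transcript of Atf4 itself had a change of -0.13, which was not called, and Ddit4, an inhibitor of mTORC1, rose by 0.77, with its call lost without batch 1 (0.101) and batch 3 (0.0513). Control cells had the opposite sign for Trib3 (0.34) and for Atf3 (0.64).

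The element to which Atf4 binds with a C/EBP partner, written TGATGNAA and searched on both strands, was chosen after the list results had been seen. It was in 2.30% of all promoter windows, in 2.32% of those of genes that rose and in 2.44% of those of genes that fell. In the windows of the integrated stress response list it was in 38.5% (Asns, Atf3, Chac1, Nupr1 and Trib3), in those of the tRNA synthetases in 41.7% (Aars, Gars, Iars, Tars and Yars) and in those of the amino acid transporters in 22.2% (Slc1a4 and Slc7a11), but in none of the 9 windows of the serine and one-carbon list (0 of 8 genes). Some of the falling genes thus hold letters that are uncommon in promoters at large, and over all genes the share hardly differed by direction. Examples follow from RefSeq on GRCm38.p6, each along its gene's strand with the element in capitals, in either orientation; they are given to show how the same core sits in an enzyme, a factor, a transporter and a synthetase gene.
Asns, at chr6:7693214-7693242 (minus strand): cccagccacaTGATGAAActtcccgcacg
Atf3, at chr1:191183425-191183453 (minus strand): cttctcgcacTTGCATCAccaagtccgcg
Slc7a11, at chr3:50443661-50443689 (minus strand): ctcatgtggcTGATGCAAacctggagaat
Gars, at chr6:55037961-55037989 (plus strand): ggctgcgctaTTTCATCAtgcaccgggcg
Gars, the glycyl tRNA synthetase, fell by 0.61 (SE 0.06, adjusted p = 8.96e-07). The synthetase that went the other way was Qars at 0.32, whose call was lost without batch 3 (0.0962) and batch 4 (0.074). Gpam, one of the largest rises among genes of at least median level, also had the element in its window. The letters alone thus did not go with one direction.

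Transcripts of ribosome biogenesis genes fell in part over these 6 h. Of 52 ribosome biogenesis genes 33 fell (63.5%, beside 16.2% of all genes), none rose and 19 were not called. The median was -0.47, beside -0.43 in the step before and -0.25 in the step after. Within batches 1, 3 and 4 the median was -0.60, -0.50 and -0.34, and 22 falls kept their call without each batch. Nop58, a core protein of the box C/D particles that modify ribosomal RNA, fell by 0.98; Gnl3, nucleostemin, by 0.90; Gar1, of the box H/ACA particles, by 0.89. Of 15 genes of the RNA polymerase I machinery 4 fell (26.7%, beside 16.2% of all genes), none rose and 11 were not called. Of the falls 3 kept their call without each batch. Of the proteins of the finished ribosome, 7 of 75 rose (9.33%, beside 14.7% of all genes), 2 fell and 66 were not called. The median was 0.10, beside 0.14 in control cells, and none was called against the control change. Only 1 of these calls held without each batch, that of Rps27, the largest rise at 1.49. In control cells Rps27 also stood higher at 18 h in each batch, at 16.84, 17.11 and 17.44 and then 17.43, 17.71 and 18.12. It belongs to a family with many processed copies and is uncertain.

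Genes of nucleotide synthesis and some of oxidative phosphorylation fell. Of 16 genes of purine and pyrimidine synthesis 11 fell (68.75%, beside 16.2% of all genes) and none rose (median -0.46), 9 of them also without each batch, among them Dhodh, the mitochondrial step of pyrimidine synthesis, at -1.0 and Gart, a purine enzyme, at -0.89. Dctd, which turns deoxycytidylate into deoxyuridylate, had 11.19, 11.35 and 11.69 at 12 h and 9.39, 10.10 and 9.69 at 18 h, and fell by 1.68 (SE 0.16, adjusted p = 2.38e-07). It was 1 of the genes whose change exceeded both neighbours in the fit with all 3 batches, at -0.26 before and -0.20 after. Of 70 oxidative phosphorylation genes 26 fell (37.1%, beside 16.2% of all genes), 1 rose and 43 were not called, with a median of -0.29. Of the falls 7 were called without each batch, led by Ndufb6 of complex I at -0.94. Myc, which drives many of these pathways, stood at 14.05, 14.23 and 14.57 at 12 h and 13.45, 13.66 and 14.05 at 18 h. It fell by 0.56 (SE 0.16, adjusted p = 0.0135), but the call was lost without batch 1 (0.0855) and without batch 3 (0.108), and the difference from the control change of -0.19 was not called (adjusted p = 0.296). Of 11 genes of the Myc network 5 rose (45.5%, beside 14.7% of all genes) and 1, Myc itself, fell (9.09%). Of the rises 2 kept their call without each batch. Mxd4, which competes with Myc for its partner Max, rose by 1.01.

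**Figure D2:**
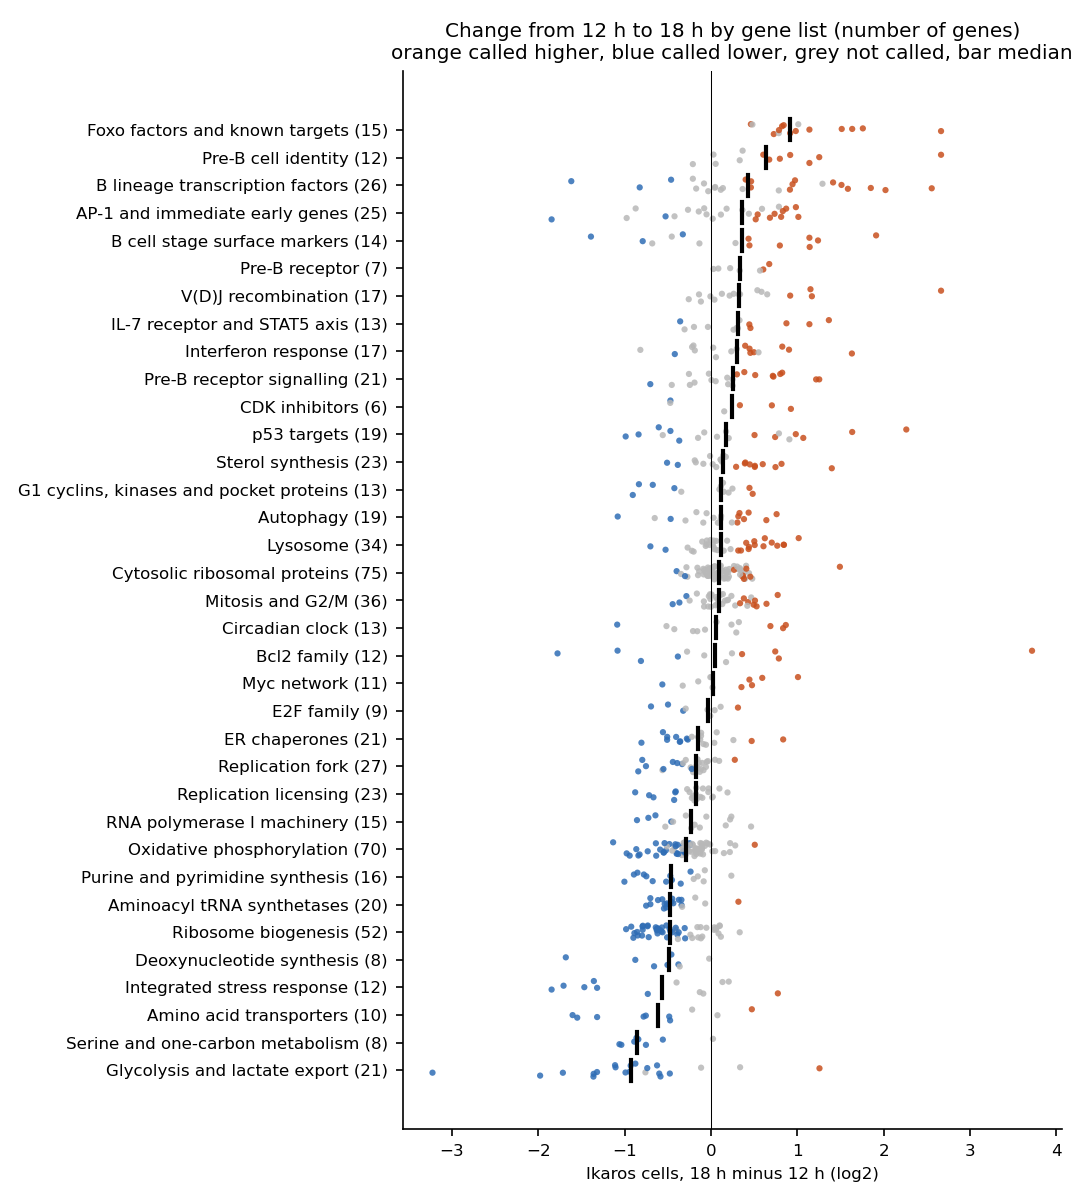
Change from 12 h to 18 h in Ikaros cells (x axis, log2) for the measured members of each gene list (y axis, number of genes in brackets), with 1 point per gene and a bar at the median. Members of the Foxo list lie to the right (median 0.92, 12 of 15 called higher), and those of glycolysis to the left (median -0.93, 17 of 21 called lower).

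Cell cycle genes did not move as one. Of 8 deoxynucleotide synthesis genes 6 fell (75%, beside 16.2% of all genes), 3 of them also without each batch. The median was -0.48, and Tyms, thymidylate synthase, was at -0.88. Of 27 replication fork genes 8 fell (29.6%, beside 16.2% of all genes) and 1 rose (median -0.17). Of these, 6 of the falls and not the rise kept their call without each batch. They included Ung, which removes uracil from DNA, at -0.84 and Rfc4, a subunit of the clamp loader, at -0.80. Of 23 origin licensing genes 6 fell (26.1%) and none rose (median -0.17), but only Orc2 at -0.72 kept its call without each batch. Mitotic genes were mostly not called. Of 36 genes 8 rose (22.2%, beside 14.7% of all genes), 3 fell (8.33%, beside 16.2%) and 25 were not called. The median was 0.09, and 1 call in each direction held without each batch. In the next 6 h 23 of the 36 fell (beside 5.65% of all genes) and none rose, with a median of -0.46.

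Nusap1, which binds spindle microtubules, gave the clearest mitotic rise. It had 13.65, 13.43 and 12.91 at 12 h and 14.04, 14.05 and 14.21 at 18 h, with no overlap although the 12 h libraries were spread, and rose by 0.77 (SE 0.13, adjusted p = 1.27e-04). Ccnb2, a mitotic cyclin, rose by 0.64, but not without batch 3 (adjusted p = 0.0867). Mybl2, a factor of the late cell cycle, fell by 0.44. The letters TTTGAA, the CHR element of late cell cycle promoters, searched on both strands, were in 68.8% of the windows of this list and in 12.1% of all windows, 11.9% for genes that rose and 11.6% for genes that fell. The share differed between the list and all windows, and hardly between genes that rose and genes that fell.

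Of 13 G1 cyclins, kinases and pocket proteins 4 fell and 2 rose (median 0.11), where the rises (15.4%) were at the share over all genes (14.7%); 2 of the falls and neither rise kept their call without each batch. Of 6 CDK inhibitors 3 rose (50%) and 1 fell (16.7%, beside 16.2% of all genes), with a median of 0.24. Of the rises 2 kept their call without each batch. Ccnd2, a cyclin that couples growth signals to the cycle, stood at 11.92, 12.43 and 12.37 and then 11.08, 11.54 and 11.38, against a control at 14.82, 14.86 and 14.65 at 12 h, and fell by 0.91 (SE 0.15, adjusted p = 1.03e-04). Ccne2, an S phase cyclin, fell by 0.67. Ccnd1 fell by 0.83, with its call lost without batch 3 (0.103) and batch 4 (0.0945). Cdkn1b, the inhibitor p27, had 14.22, 14.34 and 14.08 and then 15.02, 14.76 and 14.97, and rose by 0.71 (SE 0.14, adjusted p = 7.95e-04). Cdkn2c, the inhibitor p18 of the D cyclin kinases, had 13.92, 13.52 and 13.35 and then 14.45, 14.61 and 14.51, and rose by 0.93 (SE 0.13, adjusted p = 1.79e-05). For Cdkn2c the rise was larger than in the step before (-0.21) and after (-0.08), while Cdkn1b had risen by 0.84 already between 6 h and 12 h. Cdkn1a, p21, was lower by 0.47, but its call was lost without batch 3 (0.0559) and batch 4 (0.0671).

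**Figure D3:**
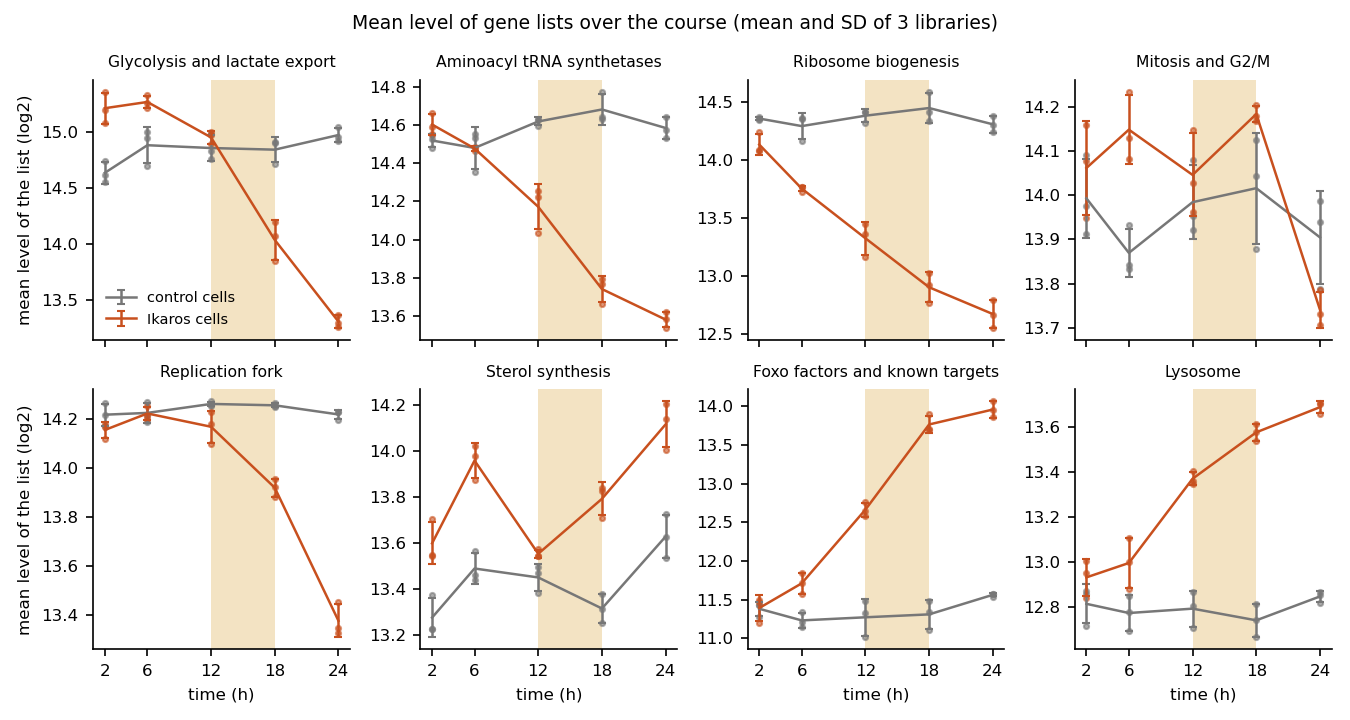
Mean level of 8 gene lists (y axis, log2) over time in hours (x axis) in control and Ikaros cells, with points for libraries, lines for the mean and bars for the SD of 3 libraries; the 12 h to 18 h interval is shaded and y axes differ. Glycolysis falls from 14.95 to 14.03 in the interval, mitosis is at 14.05 and 14.18 before its later fall, and sterol synthesis turns upward from 13.55 to 13.79.

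Foxo factors and known Foxo targets had the highest median of the gene lists. Of 15 measured 12 rose (80%, beside 14.7% over all genes), none fell and 3 were not called, with a median of 0.92 in Ikaros cells and -0.0005 in control cells, and 11 kept their call without each batch. Foxo1, the factor itself, had 15.32, 15.59 and 15.51 at 12 h and 16.07, 15.88 and 15.86 at 18 h, and rose by 0.46 (SE 0.09, adjusted p = 3.99e-04). Pik3ip1, an inhibitor of PI3 kinase, rose by 1.76 (SE 0.14, adjusted p = 3.57e-08), and S1pr1, a receptor for lipid signals that guide lymphocytes, rose by 1.51 (SE 0.24, adjusted p = 7.46e-05). Gadd45a, a growth arrest gene, rose by 1.64, and Il7r, the receptor chain for IL-7, by 1.14. None of the 15 had a change that differed from the step before, in which the list median was 0.88, and the median of the step after was 0.25.

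Rag1 (chr2:101638282-101649501), a Foxo1 target and the catalytic subunit of the recombinase, made the largest rise of the list. It stood at 12.61, 12.02 and 12.02 at 12 h and 15.26, 14.55 and 14.84 at 18 h, while control cells had 9.91, 9.72 and 9.41 and 9.98, 9.59 and 9.22. The change of 2.66 (SE 0.24, adjusted p = 1.43e-07) followed one of 2.39 in the 6 h before and preceded one of 0.34. Its neighbour Rag2, also counted in the Foxo list, rose by 0.92. Of 17 genes of V(D)J recombination these and 2 of the end joining pathway rose (23.5%, beside 14.7% of all genes). None fell and 13 were not called. The 2 were Lig4, the DNA ligase, from 13.33, 13.29 and 13.45 to 14.48, 14.44 and 14.65, which rose by 1.17 (SE 0.16, adjusted p = 2.06e-05), and Xrcc6, the Ku70 subunit that binds broken ends, which rose by 1.15 (SE 0.15, adjusted p = 1.16e-05). All 4 kept their call without each batch.

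Transcription factors of the B lineage moved in both directions. Of 26 measured, 12 rose (46.2%, beside 14.7% of all genes), 3 fell (11.5%, beside 16.2%) and 11 were not called (median 0.43). Of these, 7 rises and 1 fall kept their call without each batch. Bach2 (chr4:32238804-32586108), a repressor needed in pre-B and mature B cells, had 12.32, 12.33 and 11.50 at 12 h and 14.61, 14.55 and 14.66 at 18 h, and rose by 2.56 (SE 0.19, adjusted p = 1.72e-08). Its 18 h libraries lay close together, above all those at 12 h, and control cells had lower values, at 9.88, 9.59 and 9.14 and 9.67, 9.30 and 8.97. Ets1, a factor of lymphoid genes, went from 13.18, 12.91 and 12.49 to 14.78, 14.52 and 15.34, with control cells at 6.77, 7.36 and 7.01 at 12 h, and rose by 2.02 (SE 0.36, adjusted p = 2.48e-04). The 2 lines already differed in Ets1 at 0 h, with 12.44, 12.02 and 12.47 in Ikaros cells and 7.10, 7.23 and 7.80 in control cells. Id3, an inhibitor of E proteins, rose by 1.85, from 6.35, 6.10 and 5.86 to 7.92, 7.64 and 8.29, at a low level. Of the 3 that fell, Pou2f2, the Oct2 factor, did so by 0.83. The fall of Ikzf3, a close relative of Ikaros, was 1.62 (adjusted p = 0.011) and was not called without batch 1 (adjusted p = 0.159), and that of Bcl11a was 0.46 and was not called without batch 1 (0.0756) or batch 3 (0.0705).

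**Figure D4:**
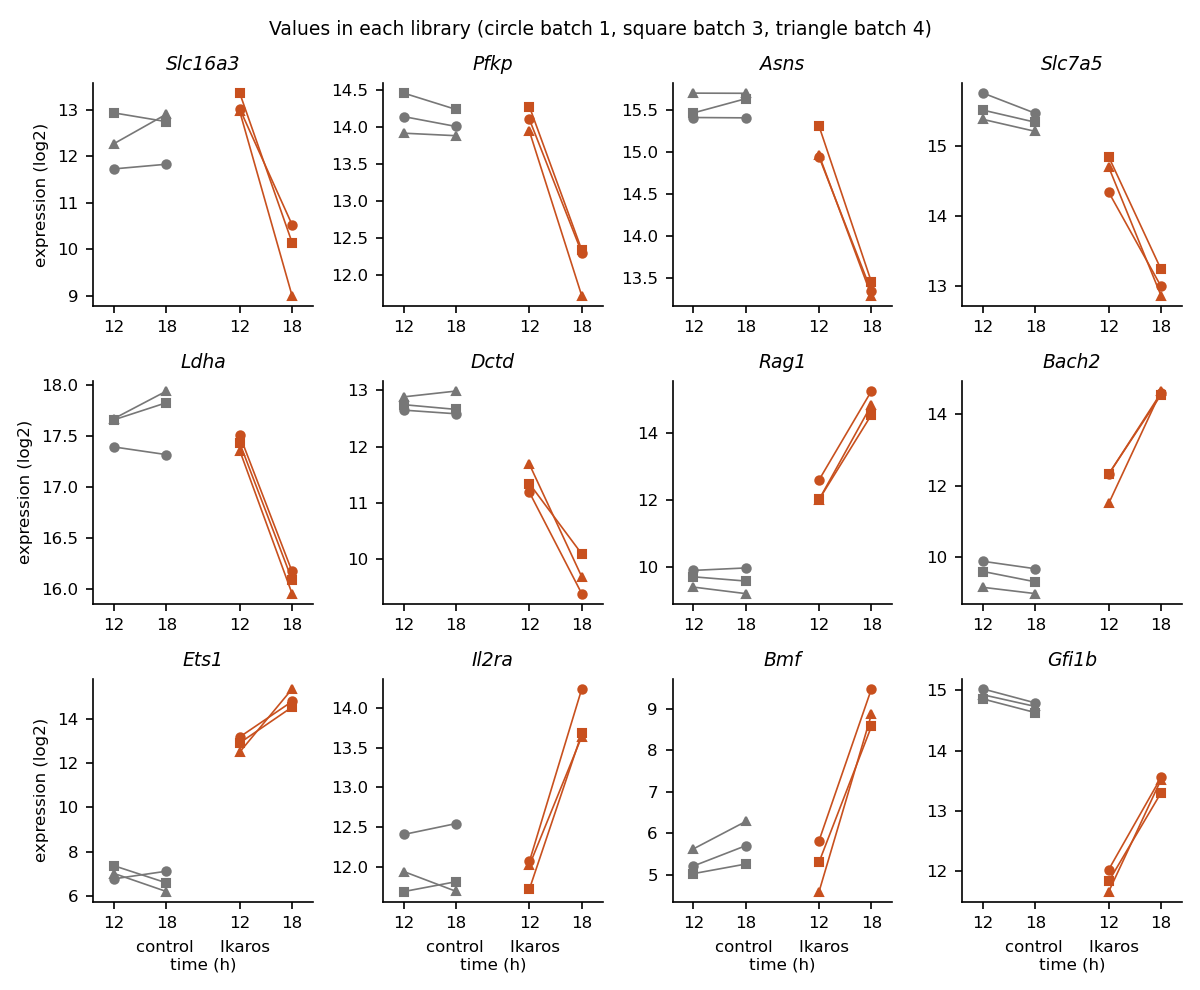
Expression (y axis, log2, axes differ) of 12 genes in each control and Ikaros library at 12 h and 18 h (x axis), with lines joining libraries of the same batch. In all 12 the Ikaros libraries of one time lie apart from those of the other, as for Asns with 14.94 to 15.30 at 12 h and 13.29 to 13.45 at 18 h. Some of the 12 were named only among genes whose times did not overlap, so for them this was set by the choice. Over all genes the times did not overlap for 43.3% in Ikaros cells.

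At the cell surface Il2ra, the CD25 chain that marks late pre-B cells, was among the largest rises of genes of at least median level. It had 12.07, 11.72 and 12.02 at 12 h and 14.24, 13.68 and 13.64 at 18 h, and rose by 1.91 (SE 0.15, adjusted p = 4.46e-08). At 12 h it lay in the range of the control cells at 12.41, 11.69 and 11.94, and at 18 h above it. Of 14 surface markers of B cell stages 7 rose (50%, beside 14.7% of all genes) and 3 fell (21.4%, beside 16.2%). Of these, 4 rises and 2 falls kept their call without each batch. Cxcr4, a receptor for a marrow chemokine, rose by 1.14 and Spn, which encodes CD43, by 1.24. H2-Ab1, a class II histocompatibility chain found on later B cells, went from 13.49, 13.69 and 13.67 to 12.43, 12.21 and 12.03, and fell by 1.39 (SE 0.14, adjusted p = 7.63e-07); Cr2, a complement receptor of mature B cells, fell by 0.79.

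Of the pre-B receptor itself 2 of 7 genes rose (28.6%, beside 14.7% of all genes) and none fell. Cd79b, a signalling chain, rose by 0.67, also without each batch. Igll1, the surrogate light chain lambda5, is a gene that Ikaros is known to repress. It had 12.39, 12.38 and 11.87 at 12 h and 12.91, 12.73 and 12.81 at 18 h, against 16.65, 16.46 and 16.82 in control cells at 12 h. It rose by 0.61 (SE 0.21, adjusted p = 0.0333) after a change of -0.82 in the step before, and the call was lost without batch 1, 3 or 4 (adjusted p = 0.14, 0.056 and 0.192). Of 21 genes that signal from the receptor 9 rose (42.9%) and 1 fell (4.76%, beside 16.2% of all genes). Of the rises 6 kept their call without each batch. Blnk, the adaptor that links the receptor to differentiation, had 13.82, 13.78 and 13.54 and then 15.20, 14.96 and 14.74, and rose by 1.25 (SE 0.12, adjusted p = 2.45e-07); this was less than the 2.84 of the step before. Syk, its kinase, rose by 0.80, and Cd72, an inhibitory receptor, by 1.22.

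Gpam, Pcyt1a and Acbd3, named among the largest rises of genes of at least median level, encode proteins that handle lipids. Gpam, which starts glycerolipid synthesis, had 12.75, 12.66 and 12.42 at 12 h and 14.76, 14.65 and 14.70 at 18 h, and rose by 2.10 (SE 0.21, adjusted p = 3.55e-07). Pcyt1a (chr16:32430921-32475070), the rate-limiting enzyme of phosphatidylcholine synthesis from choline, had 13.00, 12.74 and 12.80 and then 14.71, 14.58 and 14.81, and rose by 1.85 (SE 0.16, adjusted p = 1.03e-07). Acbd3, a Golgi protein that binds acyl-CoA, rose by 1.73 (SE 0.12, adjusted p = 1.20e-08). The rises of Pcyt1a and Acbd3 were larger than those of both neighbouring steps. Lpcat4, which remodels phospholipids, went the other way, from 11.41, 12.09 and 11.96 to 10.20, 10.42 and 10.01, and fell by 1.61 (SE 0.15, adjusted p = 2.14e-07), with 0.03 before and -0.03 after, so that its change stood in this interval.

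Sterol synthesis genes, of which many had fallen in the step before, rose in part. Of 23 genes 10 rose (43.5%, beside 14.7% of all genes), 2 fell (8.70%, beside 16.2%) and 11 were not called, with a median of 0.14. In the step before none had risen and 11 had fallen (beside 12.1% of all genes), with a median of -0.44. In the fit with all 3 batches the difference between the steps was called for 13 genes, all towards a rise (beside 4.78% of all genes). Control cells had a median of -0.14, and 8 of the 23 differed from the control change, all upward (beside 8.0% of all genes). Insig1, the sensor that retains the SREBP complex, stood at 13.90, 13.84 and 13.52 at 12 h and 15.33, 15.05 and 15.09 at 18 h, and rose by 1.40 (SE 0.17, adjusted p = 5.08e-06) after -0.70 in the step before. Hmgcs1, an early enzyme, rose by 0.75 (SE 0.12, adjusted p = 8.44e-05) after -0.94. Only Insig1, Hmgcs1 and Mvd (at 0.60) kept the call without each batch. Hsd17b7, at 0.82, lost it without batch 1 (0.0898) and batch 3 (0.158). Dhcr7 and Pmvk, at -0.38 and -0.51, were the 2 that fell, and neither was called without batch 3 (0.36 and 0.085).

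A sterol element of the form TCACNCCAC, also chosen after the list results had been seen and searched on both strands, was in 1.14% of all windows, 1.24% of those of genes that rose and 0.954% of those of genes that fell. In the sterol list it was in 1 of 18 windows (5.56%), that of Hmgcs1, and in the glycolysis list in 2 of 33 (6.06%). That single match is printed with that of Pcyt1a, a gene outside the sterol list that also rose, from RefSeq on GRCm38.p6 with the element in capitals.
Hmgcs1, at chr13:119690204-119690232 (plus strand): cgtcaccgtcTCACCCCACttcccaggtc
Pcyt1a, at chr16:32430795-32430823 (plus strand): ttcggctcagTCACCCCACgcgcccggcc

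Lysosomal genes rose in part. Of 34 measured 14 rose (41.2%, beside 14.7% of all genes), 2 fell (5.88%, beside 16.2%) and 18 were not called. The median was 0.11, and 8 rises and 1 fall kept their call without each batch. In the step before 19 had risen (beside 13.0% of all genes; median 0.34). Psap, the precursor of the saposins that help break down sphingolipids, had 15.64, 15.64 and 15.60 and then 16.59, 16.39 and 16.42, and rose by 0.84 (SE 0.06, adjusted p = 2.57e-08). Tfeb, a factor that drives lysosomal genes, fell by 0.70. Of 19 autophagy genes 7 rose (36.8%, beside 14.7% of all genes) and 2 fell (10.5%, beside 16.2%). Of these only Map1lc3b, a coat protein of autophagosomes, at 0.76 kept its call without each batch.

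Genes of cell death and survival changed on both sides. Of 12 genes of the Bcl2 family 4 rose and 4 fell (33.3% each, beside 14.7% and 16.2% of all genes). Of these, 2 rises and 3 falls kept their call without each batch. Bmf, a BH3-only killer protein, had 5.83, 5.31 and 4.60 at 12 h and 9.47, 8.57 and 8.86 at 18 h, from a low level shared with control cells (5.22, 5.04 and 5.63), and rose by 3.72 (SE 0.31, adjusted p = 6.91e-08). Bcl2, the survival protein, had 9.99, 10.33 and 10.68 and then 9.13, 9.29 and 9.34, and fell by 1.08 (SE 0.15, adjusted p = 1.90e-05), and Bok, a pro-apoptotic member, fell by 1.78. Of 19 known p53 targets 6 rose (31.6%) and 5 fell (26.3%), and 5 rises and 2 falls kept their call without each batch. Trp53inp1, a stress-induced regulator, rose by 2.26 (SE 0.26, adjusted p = 2.30e-06), and Rrm2b, a p53-induced ribonucleotide reductase subunit, rose by 1.07, while Ddb2, a DNA repair gene, fell by 0.99.

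Single genes of other kinds stood among the largest changes of genes of at least median level. Osr2, a zinc finger factor, had 13.71, 13.53 and 13.35 and then 15.80, 15.54 and 15.72, and rose by 2.16 (SE 0.18, adjusted p = 6.91e-08); Thbd, thrombomodulin, had 10.53, 10.48 and 10.92 and then 12.63, 12.41 and 13.07, and rose by 2.06 (SE 0.21, adjusted p = 6.05e-07). At 18 h Thbd was near the control libraries of both times, which ranged from 11.97 to 12.95. Gfi1b, a repressor of blood cell genes, had fallen between 6 h and 12 h (-0.78) and then rose by 1.62 (SE 0.12, adjusted p = 2.54e-08), from 12.03, 11.83 and 11.66 to 13.56, 13.30 and 13.52, and stayed below control cells at 14.79, 14.63 and 14.73. Among the falls, Etv4, an ETS factor, had 11.40, 11.97 and 11.02 and then 9.27, 9.56 and 8.91, and fell by 2.21 (SE 0.24, adjusted p = 1.19e-06). Bnip3, a mitochondrial protein of mitophagy, fell by 1.59, Tbx19, a T-box factor, by 1.53 and Tmem121, a membrane protein, by 1.49. Akap12, a scaffold of protein kinase A, rose by 1.89, Mgat5, a Golgi enzyme that branches N-glycans, by 2.04, Mesdc1 by 1.69 and Adssl1, a purine cycle enzyme of muscle, by 1.64. Sox15, a Sox factor, rose by 1.75, from a spread 9.48, 10.28 and 7.98 to 11.06, 11.02 and 10.91. These Ikaros values lay below the median gene level of 11.72, while control cells had 13.44, 13.42 and 13.33 at 18 h. Gm10131, a predicted gene, fell by 1.70 but not without batch 3 (adjusted p = 0.139).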

How the data were processed

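RNA-seq was made from poly(A) RNA of B3 cells. Per the submitters' notes and methods, reads were aligned to mm10 with TopHat2 and counted with HTSeq, and the authors normalised them with cqn and adjusted for library preparation with ComBat. The deposited values are on a log2 scale, the base being that of cqn since the file names none, with a constant added so that the lowest is 1; no counts were given. A linear model of the 10 group means from 2 h to 24 h (30 libraries), with culture batch as a block, was run in limma (version 3.58.1; R version 4.3.3), and contrasts were tested two-sided by the moderated test with Benjamini-Hochberg adjustment over all 12762 genes, called at 0.05. p-values rest on the spread that remains once group means and batch levels are fitted, within 1 cell line. It is pooled over the 10 groups and 30 libraries (18 residual degrees of freedom), including control cells and other times. SE is that of the contrast. The block is the labels' batch (1, 3, 4); deviations of same-batch Ikaros libraries at 12 h and 18 h correlated at -0.04, 0.25 and 0.23. Gene lists, motifs and members were chosen with earlier results of these data known, and lists are described by counts and medians, with no set test. Genes were named as the 12 largest rises and falls of at least median level with non-overlapping times, the 5 of each that also exceeded both neighbouring steps, up to 4 per list plus opposite ones, and the genes of the study's RT-PCR; Atf4 and Ell3 were named after their values were seen. Gene positions are from GENCODE M21. The fit was tested on simulated data. One gene is not reported here.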

Additional observations from a re-analysis of the deposited data

Results flagged for a closer look

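The change from 12 h to 18 h differed between Ikaros and control cells for 2125 genes in the test of the difference itself, in the fit across all genes with limma. Values are the Ikaros change minus the control change on the log2 scale. Among the genes named for their rise, these differences were 2.54 for Thbd, 2.51 for Mgat5, 2.45 for Gpam, 2.43 for Osr2, 2.13 for Pcyt1a and 2.01 for Akap12. They were 1.91 for Il2ra, 1.87 for Acbd3, 1.84 for Gfi1b, 1.82 for Adssl1, 1.79 for Mesdc1 and 1.47 for Sox15. Among those named for their fall they were -3.41 for Slc16a3, -2.23 for Etv4, -1.85 for Pfkp, -1.76 for Asns, -1.73 for Bnip3 and -1.67 for Dctd. They were -1.65 for Lpcat4, -1.55 for Slc2a1, -1.39 for Tbx19, -1.39 for Slc7a5 and -1.30 for Tmem121. Gm10131, also named for its fall, was not among the genes flagged for this difference. Of the genes the study followed by RT-PCR, the difference was also called for Ldha at -1.48, Hk2 at -1.06, Lig4 at 0.91 and Foxo1 at 0.49, while for Igll1 it was 0.56 (adjusted p = 0.209) and for Myc -0.37 (adjusted p = 0.296) and was not called.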

How the results depend on the processing

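Without the replicate block, over all 36 libraries, 3252 genes were called in Ikaros cells (3214 of them among the 3939), 1497 against the control change, 1013 against the step before and 147 against the step after. With only the groups of each contrast and the block, few residual degrees of freedom were left, and the counts were 590, 1211, 0 and 0 (2298 and 2097 genes at an unadjusted p under 0.05 for the last 2). A log2 change of at least 1 left 792, 635, 636 and 147. Leaving out 1 batch gave 1676 to 2873, 363 to 1370, 47 to 859 and 1 to 51. In control cells limma called 0 or 1 gene in every setting. The count was 0 without the block (556 at an unadjusted p under 0.05), with the contrast's groups only (1338), with low genes filtered (522), with a trended robust prior (788) and in the fits leaving out a batch (0 to 0, with 468 to 928). Filtering, quantile normalisation, the trended prior, removal of GC and length trends and a block within each cell line kept the other counts within 1.5 times. Of 180 named genes none reversed its direction in any setting; 16 lost their call without the block, 113 with the contrast's groups only, 8 with GC and length trends removed, and 35, 56 and 33 without batch 1, 3 and 4. No setting moved the median of all genes by 0.1. The lack of counts means that no value's depth could be weighed, and 3 batches limit each fit.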

Other observations

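Smaller lists gave these values in Ikaros cells between 12 h and 18 h, where 14.7% of all genes rose and 16.2% fell. Of 17 measured interferon response genes 7 rose and 1 fell (median 0.30), of which Ddx58, the RIG-I sensor, at 0.83 and Ifit2 at 0.90 kept their call without each batch. Of 25 AP-1 and immediate early genes 9 rose (36%) and 2 fell (8%), with a median of 0.36, beside 0.16 in control cells. Against the control change 3 of the 25 were called upward and 4 downward, beside 1021 (8.0%) and 1104 of all 12762 genes. Only 2 of the rises kept the call in every fit that left out 1 batch, among them Btg1, an antiproliferative gene, at 1.01. Of 13 clock genes 3 rose (23.1%) and 1 fell (7.69%), with a median of 0.06, and 2 rises and the fall kept their call in those fits. The 3 included Arntl, the BMAL1 factor, at 0.83 and Dbp, a clock output factor, at 0.69, and Bhlhe40, a repressor of the clock, was at -1.09. Of 13 genes of the IL-7 receptor and STAT5 axis 5 rose and 1 fell (median 0.31), and 1 of the rises, that of Il7r, kept its call without each batch. Socs3, which damps cytokine signals, was at 1.36, with its call lost without batch 1 (0.0912) and batch 4 (0.123).

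Of 21 chaperones and folding enzymes of the endoplasmic reticulum 2 rose (9.52%, beside 14.7% of all genes) and 9 fell (42.9%, beside 16.2%). The median was -0.15. Manf, a secreted stress factor, was at -0.81, Hyou1, a chaperone, at -0.56 and Pdia6, a disulphide isomerase, at -0.51, and all 3 falls kept their call without each batch. Herpud1, which serves degradation of misfolded proteins, went the other way at 0.84, and Xbp1, a factor of the unfolded protein response, was at 0.47 but was not called without batch 3 (0.102). Of 9 E2F genes 3 fell (33.3%) and 1 rose (11.1%), and none of these calls held without each batch.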
